A study of Mus musculus with 10 samples.

Results

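A set of 10 genes that mark the retinal pigment epithelium (RPE) and the melanin pathway were followed in bulk RNA sequencing of mouse retina: Mitf, Ttr, Best1, Stra6, Pmel, Mlana, Tyr, Tyrp1, Dct and Slc45a2. They were taken by gene symbol from a table of 57010 genes, and all 10 were found in it. In the annotation (GENCODE M21, GRCm38), Mitf spans chr6:97807052-98021349, Stra6 chr9:58063788-58153996, Best1 chr19:9985174-10001633 and Pmel chr10:128704195-128720238. Mlana spans chr19:29697824-29708634, Tyr chr7:87424771-87493512, Tyrp1 chr4:80834123-80851719, Dct chr14:118012790-118052244 and Slc45a2 chr15:11000721-11029233. The retinas were those of 10 mice that were 6 to 8 weeks old. Green fluorescent protein (GFP) had been delivered into the vitreous 14 days earlier with an adeno-associated virus (AAV), AAV2-GFP in 5 mice and AAV206-GFP in the other 5. AAV2 is a serotype widely used for the inner retina, and the study's title speaks of a vector specific to the RPE without naming it. Every mouse was injected, so each difference is between 2 vectors and not from an untreated retina. Mouse strain, the promoter that drove GFP and the number of eyes behind each library are not given in the sources used here.

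The RPE is a single layer of pigmented cells that lies against the photoreceptor outer segments. It recycles the visual chromophore, takes up shed outer segments and moves retinol and ions between the choroid and the retina. Its pigment, melanin, is made in melanosomes, where the matrix protein PMEL forms fibrils and tyrosinase (TYR), TYRP1 and DCT convert tyrosine into pigment. MITF is the transcription factor that turns on many of these genes in pigment cells. When a retina is peeled from the eye cup most of the RPE stays behind, so these transcripts in a retinal library report both RPE carried over in dissection and any expression in the neural retina itself. In bulk tissue, fewer cells of a type and less RNA per cell cannot be told apart.

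The promoters of the 3 melanin enzyme genes are shown because each carries the letters TCATGTG, the core of the M-box that MITF is known to bind. They are the 250 bases upstream of the RefSeq start on GRCm38.p6, on the strand of the gene, with each match to TCATGTG on either strand in capitals. Tyr lies on the minus strand at chr7:87493513-87493762, Tyrp1 on the plus strand at chr4:80833963-80834212 and Dct on the minus strand at chr14:118052247-118052496.
Tyr: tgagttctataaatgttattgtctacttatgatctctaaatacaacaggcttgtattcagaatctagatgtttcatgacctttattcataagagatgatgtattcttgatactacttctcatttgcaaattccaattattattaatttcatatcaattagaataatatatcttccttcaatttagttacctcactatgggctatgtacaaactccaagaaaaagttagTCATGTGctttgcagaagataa
Tyrp1: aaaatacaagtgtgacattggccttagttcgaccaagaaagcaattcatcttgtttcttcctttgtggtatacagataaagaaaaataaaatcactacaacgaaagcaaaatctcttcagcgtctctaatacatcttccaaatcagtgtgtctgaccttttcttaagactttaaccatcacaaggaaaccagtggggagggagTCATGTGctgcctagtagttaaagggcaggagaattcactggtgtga
Dct: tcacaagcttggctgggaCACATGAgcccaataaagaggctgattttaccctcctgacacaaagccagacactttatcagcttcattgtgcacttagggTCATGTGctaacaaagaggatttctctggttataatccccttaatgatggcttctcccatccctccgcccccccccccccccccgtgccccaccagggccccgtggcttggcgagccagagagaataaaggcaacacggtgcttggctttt
The match begins 22 bases before the start in Tyr, 47 bases before it in Tyrp1 and 151 bases before it in Dct. Dct holds a second match, on the opposite strand, that begins 232 bases before the start. Around the same-strand match all 3 promoters share the 10 letters GTCATGTGCT. Of 32851 promoter windows of 300 bases in the RefSeq table, 3.77% hold TCATGTG on either strand and 0.186% hold the longer stretch, which was read from these 3 genes. Promoter entries were found for 6 of the 10 genes, and no TCATGTG was present in the windows of Mitf, Stra6 and Best1. A match describes letters and not a binding site.

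Libraries held between 10989843 and 12752604 counts, so 3 counts, taken as the floor for a level, equal 0.232 to 0.273 CPM (counts relative to the scaled library total). The retina label was checked on neural retina markers: 4 genes of Müller glia summed to between 1755 and 2546 CPM in every library, and 4 genes of bipolar cells to between 501 and 765 CPM. Rpe65, the isomerase of the visual cycle and the most RPE-restricted gene used for comparison, had between 2 and 32 counts per library. Interferon genes were high in AAV2-GFP replicates 1 and 4, where the summed level of 6 of them was 418 and 552 CPM. The remaining 8 mice lay between 79.0 and 139.8 CPM. AAV2-GFP replicate 1 also stood apart in the sum of 6 microglia and macrophage genes, at 126 CPM, while all others lay between 14.02 and 21.5 CPM.

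None of the RPE and pigment genes passed the test between the vectors after adjustment over all genes. Enough counts for the test were present for 6 of the 10, and with edgeR 0 of these 6 passed an adjusted p of 0.05, while 4 had an unadjusted p under 0.05. DESeq2 and limma-voom also called 0, with 2 genes each at an unadjusted p under 0.05. Over all 15539 tested genes an unadjusted p under 0.05 was reached by 4352 with edgeR, 4349 with DESeq2 and 4306 with limma-voom. Across all 15539 tested genes 11.2% passed, 5.95% higher and 5.30% lower with AAV206-GFP. The groups overlapped in each of the 6 genes. Of all tested genes 9.78% showed no overlap, 5.42% with AAV206-GFP higher and 4.36% with it lower. With only 6 genes, the lack of any without overlap cannot be told from that share. The median log2 fold change of the 6 genes was -0.26, against -0.0095 over all tested genes. The 4 genes with unadjusted p under 0.05 did not share a direction: Ttr, Mitf and Stra6 had lower means with AAV206-GFP and Tyrp1 a higher one.

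**Figure D1:**
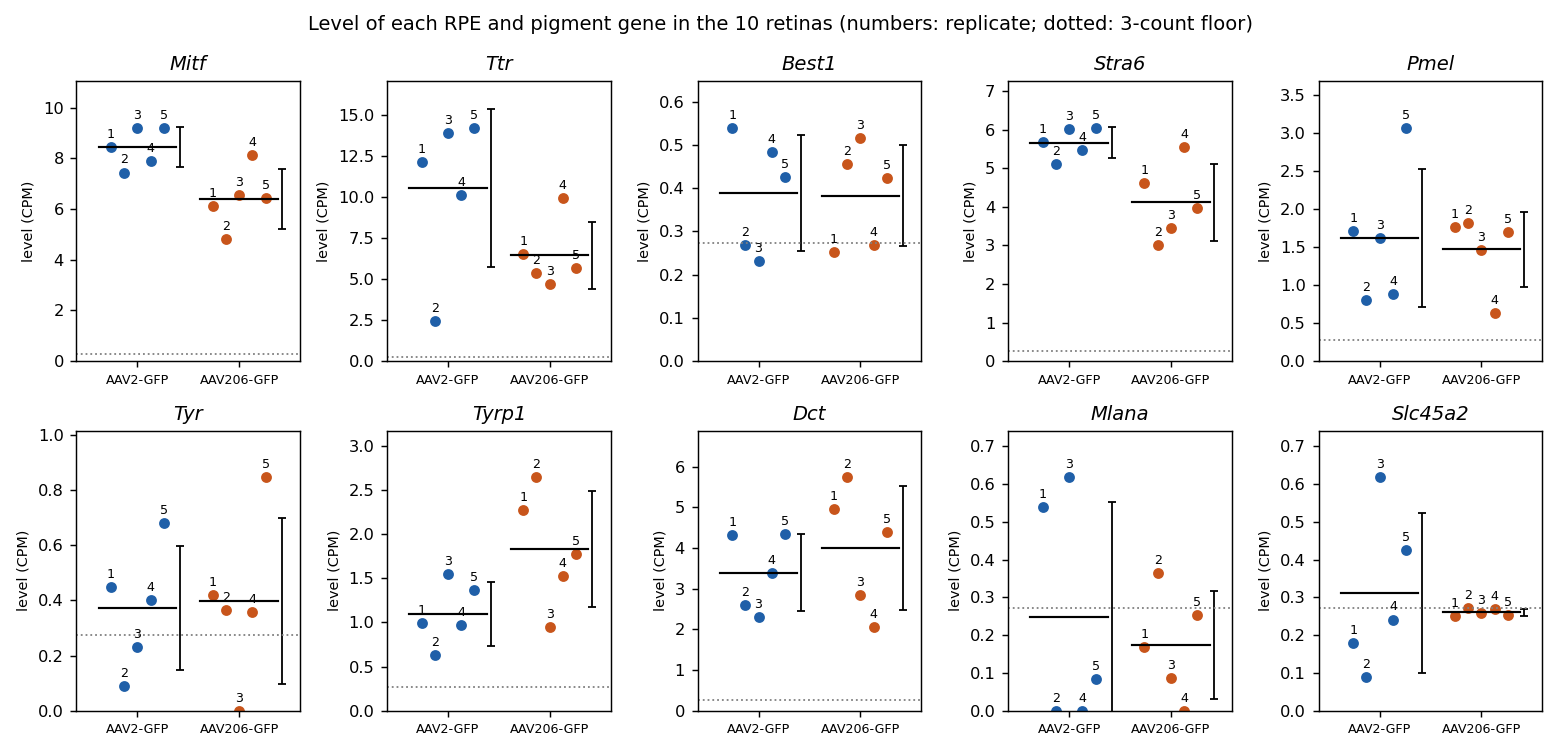
Level of each gene in CPM (vertical axis, from 0) in the 5 AAV2-GFP and 5 AAV206-GFP retinas. Points are mice numbered by replicate, lines are group means, bars are the SD, and the dotted line is the largest 3-count floor, 0.273 CPM. The AAV206-GFP mice lie low in Mitf and Stra6, and AAV2-GFP replicate 2 is the lowest of all mice in Ttr and Tyrp1.

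Level per length was compared as CPM per kilobase of merged exons, averaged over the 10 mice. Ttr stood highest at 7.18 ± 3.48 (SD, n = 10), followed by Mitf at 1.198 ± 0.230 and Stra6 at 0.839 ± 0.187. Pmel at 0.674 ± 0.303, Dct at 0.627 ± 0.209 and Tyrp1 at 0.518 ± 0.223 came next and lay within each other's spread. The lowest were Mlana at 0.200 ± 0.215, Best1 at 0.1499 ± 0.0461, Slc45a2 at 0.0959 ± 0.0480 and Tyr at 0.0541 ± 0.0353. Rpe65, at 0.799 ± 0.422 on this scale, was close to Stra6 and Pmel. Of neighbours in this order, the ranges of mean ± SD were apart only between Ttr and Mitf.

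**Figure D2:**
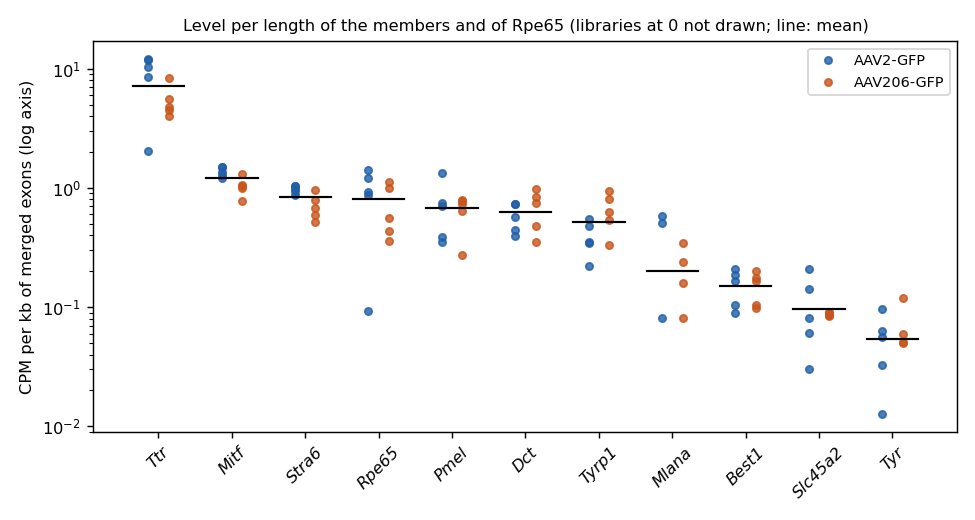
Level of the 10 genes and of Rpe65 in CPM per kilobase of merged exons (log axis), ordered by mean. Points are mice, coloured by vector, and black lines are means over 10 mice. Ttr is highest with a mean of 7.18, and Tyr is lowest with a mean of 0.0541.

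Mitf, the pigment cell transcription factor, was measured at 8.46, 7.44, 9.19, 7.89 and 9.21 CPM in AAV2-GFP replicates 1 to 5. In AAV206-GFP replicates 1 to 5 it stood at 6.13, 4.82, 6.54, 8.15 and 6.43 CPM. All AAV206-GFP mice were under the AAV2-GFP median and 4 of them were under every AAV2-GFP mouse, with replicate 4 reaching into the AAV2-GFP range. The means were 8.44 ± 0.782 and 6.41 ± 1.19 CPM (SD, n = 5), a difference of -0.40 on the log2 scale (standard error 0.15) that did not pass (edgeR adjusted p = 0.106, unadjusted 0.0207). Gene counts do not separate the several start sites of Mitf, so its RPE and melanocyte isoforms were not told apart. Among the relatives of MITF, Tfeb, a regulator of lysosome genes, fell from 11.9 ± 1.28 to 7.72 ± 1.46 CPM, a difference of -0.62 on the log2 scale (standard error 0.14; edgeR adjusted p = 0.0131). Tfeb was the 1 gene of 8 tested in the list of RPE and MITF-family transcription factors to pass, beside 11.2% of all tested genes. Its groups did not overlap, as in 9.78% of all tested genes.

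Stra6, the receptor that brings retinol from its plasma carrier into the RPE, had levels of 5.67, 5.11, 6.02, 5.47 and 6.05 CPM in AAV2-GFP replicates 1 to 5. The AAV206-GFP mice in the same order had 4.62, 3.00, 3.44, 5.55 and 3.98 CPM. As for Mitf, only AAV206-GFP replicate 4 lay within the AAV2-GFP range. The means were 5.67 ± 0.394 and 4.12 ± 1.002 CPM (SD, n = 5), a difference of -0.46 on the log2 scale (standard error 0.19; edgeR adjusted p = 0.117, unadjusted 0.0246).

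Mitf and Stra6 varied together from mouse to mouse. Over 10 libraries, Pearson's r of log2(CPM + 1) was 0.93 (permutation p = 0.00019) and Spearman's rho was 0.95 (permutation p = 0.00013). Of all 45 pairs among the 10 genes, this was the 1 pair that passed after adjustment, with an adjusted p of 0.00855 for r. Without the 2 mice farthest from the median of Stra6, AAV206-GFP replicates 2 and 3, r was 0.93, and for deviations from the group means it was 0.84. Each group holds 5 mice, too few for a separate correlation. With Rpe65, r was 0.17 for Mitf (permutation p = 0.642) and 0.13 for Stra6 (permutation p = 0.721), with rho of 0.36 and 0.38 (permutation p = 0.313 and 0.279).

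Ttr encodes transthyretin, the carrier of thyroxine and of the retinol-binding protein, which the RPE secretes. Its levels were 12.2, 2.42, 13.9, 10.1 and 14.2 CPM in AAV2-GFP replicates 1 to 5, and 6.55, 5.37, 4.73, 9.94 and 5.67 CPM in AAV206-GFP replicates 1 to 5. In 4 of 5 AAV2-GFP mice Ttr was above every AAV206-GFP mouse, while AAV2-GFP replicate 2 was below all of them. The group means were 10.6 ± 4.84 and 6.45 ± 2.05 CPM (SD, n = 5), a difference of -0.72 on the log2 scale (standard error 0.33; edgeR adjusted p = 0.171). Whether Ttr passed turned on AAV2-GFP replicate 2: without that mouse the log2 fold change was -0.97 and the edgeR adjusted p was 0.00732. Over its other alternatives the adjusted p lay between 0.124 and 0.384. The mouse had 27 counts of Ttr and 2 of Rpe65 (exact 95% Poisson interval 0.242 to 7.22 counts, which covers counting error only).

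Best1, the calcium-activated chloride channel of the RPE, was barely detected. It had 3 to 6 counts in each library, group means of 0.390 ± 0.134 and 0.383 ± 0.117 CPM (SD, n = 5), and too few counts for the main test. Best1 was the gene with the smallest spread relative to counting error, with a within-group variance 0.485 times that of counting alone.

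Pmel, the fibril protein of the melanosome, stood at 1.71, 0.807, 1.62, 0.886 and 3.07 CPM in AAV2-GFP replicates 1 to 5 and at 1.76, 1.82, 1.46, 0.627 and 1.69 CPM in AAV206-GFP replicates 1 to 5. Its means of 1.62 ± 0.910 and 1.47 ± 0.492 CPM (SD, n = 5) differed by less than the spread of the mice (log2 fold change -0.13, standard error 0.39, edgeR adjusted p = 0.855). The Pmel locus overlaps Cdk2 over 837 bases and Dgka over 105 bases on the opposite strand. Whether counting used strand is not given in the sources used here, so reads from these ends cannot be assigned. Stra6 shares its locus with Ccdc33 on the opposite strand, which averaged 0.0338 CPM. Mlana, a melanosomal protein that binds PMEL, had 0 to 8 counts and was listed at 0 in 3 libraries. Its group means were 0.249 ± 0.305 and 0.174 ± 0.142 CPM (SD, n = 5). A count of 0 entered these means as 0 and was read as a level under the 3-count floor, 0.242 to 0.269 CPM in those libraries.

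Dct, which had the highest mean level per length of the 3 enzymes, within the spread of Tyrp1, stood at 4.32, 2.60, 2.32, 3.38 and 4.35 CPM in AAV2-GFP replicates 1 to 5 and at 4.95, 5.73, 2.84, 2.06 and 4.40 CPM in AAV206-GFP replicates 1 to 5. DCT converts dopachrome in the eumelanin branch. In 3 of 5 AAV206-GFP mice Dct was above every AAV2-GFP mouse, and in 1, replicate 4, below all of them. The means were 3.39 ± 0.944 and 3.997 ± 1.52 CPM (SD, n = 5) and did not pass (log2 fold change 0.24, standard error 0.28, edgeR adjusted p = 0.617). Tyrp1, a melanosomal oxidase, was at 0.990, 0.628, 1.54, 0.966 and 1.36 CPM in AAV2-GFP replicates 1 to 5. In AAV206-GFP replicates 1 to 5 it was at 2.27, 2.64, 0.947, 1.52 and 1.78 CPM. As for Dct, 3 of 5 AAV206-GFP mice were above every AAV2-GFP mouse in Tyrp1. The means were 1.098 ± 0.361 and 1.83 ± 0.656 CPM (SD, n = 5), a difference of 0.72 on the log2 scale (standard error 0.34) that did not pass (edgeR adjusted p = 0.175, unadjusted 0.0484).

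Tyr, the rate-limiting enzyme of melanin synthesis, had 0 to 10 counts per library. The group means of Tyr were 0.371 ± 0.225 and 0.398 ± 0.301 CPM (SD, n = 5). Slc45a2, a melanosomal transporter, had 1 to 8 counts, at 0.311 ± 0.211 and 0.261 ± 0.00931 CPM (SD, n = 5). All 5 AAV206-GFP libraries held exactly 3 counts of Slc45a2. With no filter on low counts the log2 fold changes of Best1, Tyr, Mlana and Slc45a2 were -0.03, 0.09, -0.50 and -0.26, with standard errors of 0.63 to 0.996 and edgeR adjusted p-values of 0.804 to 0.9998, so a difference was not detectable at this depth.

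The 3 enzyme genes with the shared promoter letters did not pass as correlated pairs. Pearson's r over 10 libraries was 0.55 for Tyrp1 with Dct, 0.55 for Tyr with Dct and 0.44 for Tyr with Tyrp1, with permutation p-values of 0.0992, 0.0978 and 0.199 and adjusted values of 0.496, 0.496 and 0.567 over the 45 pairs. Spearman's rho for the same pairs was 0.58, 0.62 and 0.42 (permutation p = 0.0905, 0.0599 and 0.233, adjusted 0.480, 0.480 and 0.659). Without the 2 mice farthest from the median of Dct, AAV2-GFP replicate 3 and AAV206-GFP replicate 4, r of Tyrp1 with Dct was 0.90 and that of Tyr with Dct 0.65. For Tyr with Tyrp1 it was 0.40 without AAV2-GFP replicate 2 and AAV206-GFP replicate 2. Mitf and Dct had an r of -0.55 (permutation p = 0.0965, adjusted 0.496) and a rho of -0.56 (permutation p = 0.0958, adjusted 0.480).

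The same genes were summed mouse by mouse as a reading of carry-over, which the sum does not separate from expression in the neural retina. The summed level of all 10 genes was 35.02, 19.5, 36.3, 29.9 and 39.9 CPM in AAV2-GFP replicates 1 to 5 and 27.4, 24.8, 20.8, 28.7 and 25.7 CPM in AAV206-GFP replicates 1 to 5. The highest mouse had 2.05 times the level of the lowest, and the sum never exceeded 0.00399% of all counts. AAV2-GFP replicate 2 was the lowest of the 10 mice, and none of its 10 genes was above the median of the libraries. AAV2-GFP replicates 1 and 5 were above the median in 8 of 10 genes each, and AAV206-GFP replicate 3 in 2. The means were 32.1 ± 7.93 and 25.5 ± 3.01 CPM (SD, n = 5), a difference of -6.61 CPM that is given as a description. Without AAV2-GFP replicate 2 this difference was -9.77 CPM, and without Ttr, which made up 12.4% to 38.3% of the sum, it was -2.49 CPM.

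The 6 pigment genes alone ordered the mice differently. Pmel, Mlana, Tyr, Tyrp1, Dct and Slc45a2 summed to 8.19, 4.21, 6.95, 5.88 and 9.98 CPM in AAV2-GFP replicates 1 to 5 and to 9.82, 11.2, 5.59, 4.83 and 9.22 CPM in AAV206-GFP replicates 1 to 5. The means were 7.04 ± 2.20 and 8.13 ± 2.77 CPM (SD, n = 5). This difference of 1.09 CPM, given as a description, had the opposite sign to that of all 10 genes. AAV206-GFP replicate 4, the highest of its group over all 10 genes, was the lowest of its group in pigment genes. AAV206-GFP replicate 2 had the highest pigment sum of the 10 mice and the lowest Mitf and Stra6.

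Rpe65 gave a measure of carry-over outside the 10 genes. It stood at 2.34, 0.179, 1.78, 1.69 and 2.73 CPM in AAV2-GFP replicates 1 to 5 and at 0.839, 2.18, 0.688, 1.07 and 1.95 CPM in AAV206-GFP replicates 1 to 5. As in Ttr, AAV2-GFP replicate 2 was lowest and replicate 5 highest. The Rpe65 level of AAV2-GFP replicate 2 rests on 2 counts, under the 3-count floor. All 10 genes had a positive r with Rpe65 over the 10 libraries, but 0 of these 10 relations passed after adjustment and 2 had an unadjusted p under 0.05 for r. The closest were Ttr with r = 0.73 and rho = 0.66 (permutation p = 0.0145 and 0.0442, adjusted 0.112 and 0.147) and Tyr with r = 0.71 and rho = 0.71 (permutation p = 0.0225 and 0.0269, adjusted 0.112 and 0.147). Tyr had only 0 to 10 counts per library. With AAV2-GFP replicate 2 left out, r was 0.51 for Ttr and 0.63 for Tyr. With AAV206-GFP replicate 3 left out instead, it was 0.71 and 0.67. Without both of these mice, the 2 farthest from the median of Rpe65, r was 0.30 for Ttr and 0.37 for Tyr. Leaving both out narrows the range of Rpe65, which can by itself lower r. The sign was not shared by all genes without these mice, with r of -0.29 for Tyrp1 (0.40 with them) and -0.0014 for Stra6. Best1 went from 0.46 to 0.71, but at 3 to 6 counts per library it varied within groups no more than counting error allows. Pmel kept an r of 0.59 without these mice, from 0.62 with them (permutation p = 0.0567, and rho = 0.70 with permutation p = 0.0304, adjusted 0.189 and 0.147).

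Another visual cycle gene, Lrat, ordered the mice differently. It had 11 to 24 counts per library, and its within-group variance was 0.378 times that of counting alone, against 4.995 times for Rpe65. The order of mice by Lrat within a group therefore cannot be told from counting error. All 5 AAV206-GFP mice were under the AAV2-GFP median of Lrat, as for Mitf and Stra6. With Lrat in place of Rpe65, r was 0.67 for Mitf (permutation p = 0.036, adjusted 0.282) and 0.62 for Stra6 (permutation p = 0.0564, adjusted 0.282). It was 0.46 for Ttr, 0.30 for Pmel, 0.15 for Tyr and 0.0019 for Best1, and negative for Tyrp1 at -0.39 and Dct at -0.13 (adjusted permutation p of 0.502 to 0.996 for these 6). None of the 10 relations with Lrat passed after adjustment, and 1 had an unadjusted p under 0.05. The genes closest to the marker thus differed between Rpe65 and Lrat, a difference that was not itself tested. With Lrat at counting error within groups, it cannot show whether these markers disagree on carry-over.

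**Figure D3:**
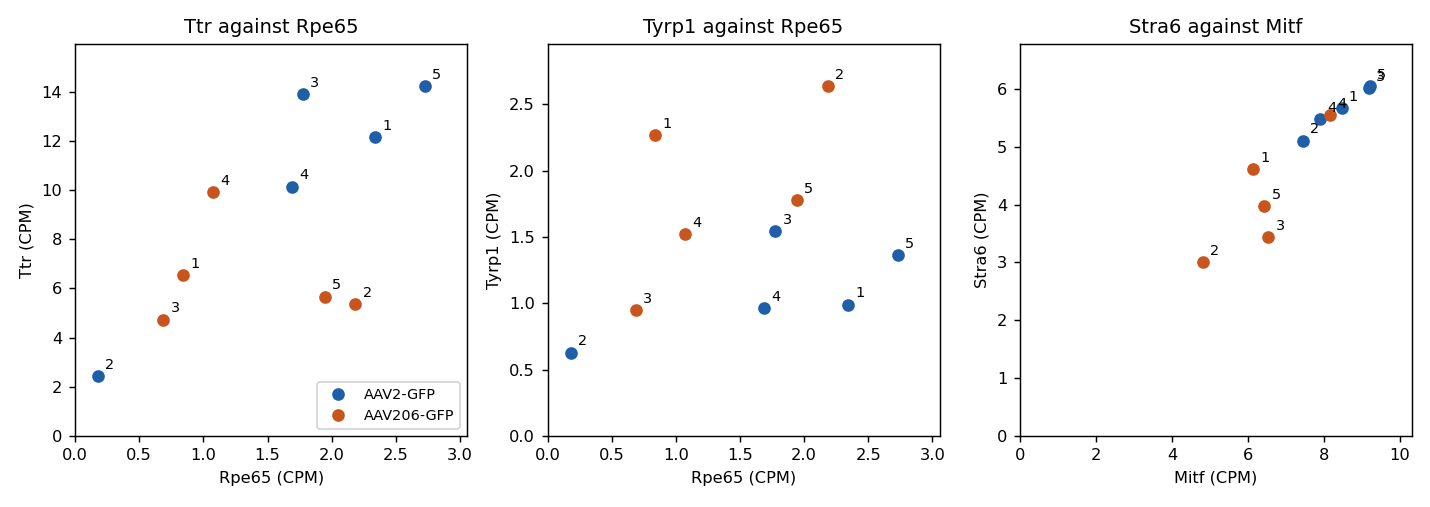
Level in CPM of Ttr against Rpe65, Tyrp1 against Rpe65 and Stra6 against Mitf, one point per mouse, numbered by replicate and coloured by vector. AAV2-GFP replicate 2 lies at the lower left in both plots against Rpe65 (0.179 CPM of Rpe65), and Stra6 rises with Mitf across all 10 mice (r = 0.93 on log2(CPM + 1)).

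The genes differed in the ratio of the variance among mice of one group to counting error. This ratio rises with the counts of a gene, so it does not rank genes of unlike depth by variation between mice. Ttr had 1005 counts in all and an SD over the 10 mice of 48.4% of its mean. Mlana had 25 counts and an SD of 107.6%, and Tyr 45 counts and 65.3%, counting error included. Within groups the variance of Ttr was 16.2 times that of counting alone, that of Dct 4.80 times and that of Pmel 3.92 times. Rpe65 stood at 4.995 times on this measure. Mlana, Tyr and Tyrp1 came to 2.86, 2.12 and 2.04 times, and Mitf and Stra6 to 1.65 and 1.53 times. Slc45a2 and Best1, at 0.848 and 0.485 times, varied no more than their counts allow.

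Of 14 tested genes in a list of other RPE genes, 1 passed, in the lower direction, and 5 had an unadjusted p under 0.05, beside 11.2% and 4352 of 15539 over all genes. Their median log2 fold change was -0.08. Rgr, an opsin of the RPE and of Müller glia that photoisomerises retinal, fell from 10.7 ± 3.896 to 6.18 ± 1.18 CPM (SD, n = 5), a difference of -0.79 on the log2 scale (standard error 0.22; edgeR adjusted p = 0.0328). The groups overlapped, since AAV2-GFP replicate 2 was at 6.10 CPM, and 9 of 19 alternatives left Rgr short of the threshold, with adjusted p-values up to 0.0864. Among them were the fits without AAV2-GFP replicate 3, 4 or 5 and without AAV206-GFP replicate 1, 2, 3 or 5. Rrh, which encodes peropsin, had the opposite sign, from 11.02 ± 1.07 to 15.2 ± 3.42 CPM, and did not pass (log2 fold change 0.46, standard error 0.15, edgeR adjusted p = 0.0545). The visual cycle enzymes Rpe65, Lrat and Rdh5 had lower means with AAV206-GFP, by -0.38, -0.42 and -0.56 on the log2 scale, that did not pass (adjusted p from edgeR 0.643, 0.316 and 0.154), and Rdh5 carried decimals in all 10 libraries, so part of its count is an estimate. Enpp2, a secreted lysophospholipase, and the keratin Krt18 stood 0.24 and 0.36 higher on the log2 scale and did not pass (adjusted p from edgeR 0.0743 and 0.118). Rrh passed with DESeq2 (adjusted p = 0.0274) and without AAV206-GFP replicate 5 (adjusted p = 0.0155 with edgeR), and Enpp2 without AAV2-GFP replicate 5 (0.0417) or AAV206-GFP replicate 5 (0.0448).

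**Figure D4:**
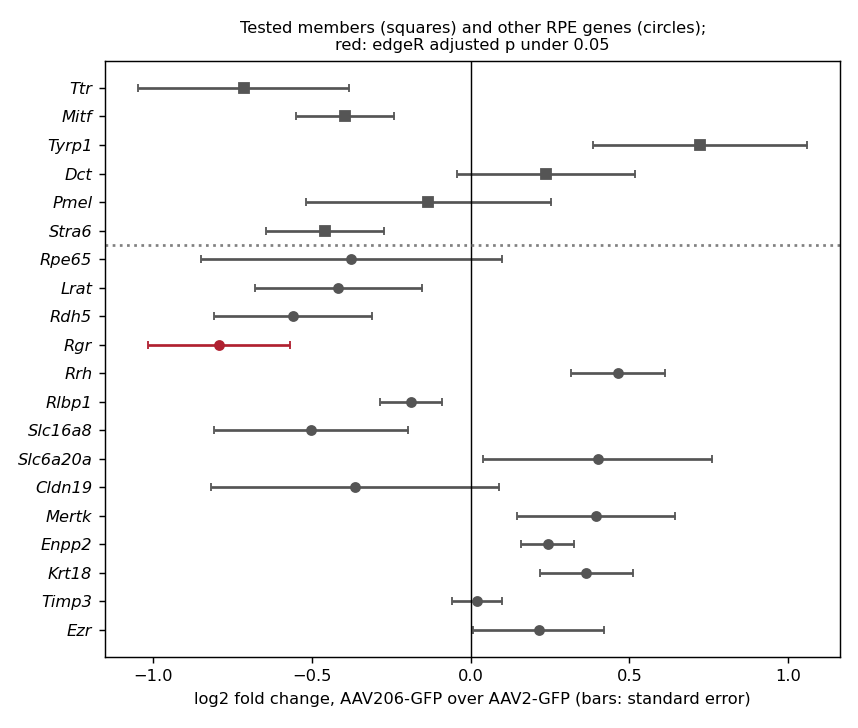
Log2 fold change of AAV206-GFP over AAV2-GFP (horizontal axis) with its standard error for the 6 tested members of the gene set (squares) and 14 other RPE genes (circles). Rgr at -0.79 is the 1 gene drawn in red, for an edgeR adjusted p under 0.05, and the other genes lie on both sides of 0.

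Among 22 tested genes of melanosome biogenesis and transport outside the set, 1 passed and 8 had an unadjusted p under 0.05, beside 11.2% and 4352 of 15539 over all genes, and the median log2 fold change was 0.07. Hps3, a subunit of the BLOC-2 complex that delivers cargo to melanosomes, rose from 71.4 ± 5.44 to 88.5 ± 6.45 CPM (SD, n = 5), a difference of 0.31 on the log2 scale (standard error 0.07; edgeR adjusted p = 0.00981). Hps3 passed under all 19 alternatives. Bloc1s3, a BLOC-1 subunit, had a log2 fold change of -0.37 and did not pass (edgeR adjusted p = 0.0722). The groups of Bloc1s3 did not overlap, as in 9.78% of all tested genes, 4.36% with AAV206-GFP lower. Slc7a11, the cystine transporter used for pheomelanin, had 0.50 (edgeR adjusted p = 0.0858) and Hps1, a BLOC-3 subunit, had 0.45 (edgeR adjusted p = 0.125). Without AAV2-GFP replicate 1, Bloc1s3 and Hps1 passed (edgeR adjusted p = 0.0413 and 0.0183). Most genes of this list act in lysosome-related organelles of many cell types, and they summed to between 970 and 1178 CPM.

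Genes listed for other pigmented and neighbouring tissues were detected, in several lists with sums above those of the 10 genes. Whether cells of the neural retina gave these counts was not tested. All 6 listed melanocyte and neural crest genes were detected and their sum covered 50.2 to 65.3 CPM with AAV2-GFP and 46.1 to 60.4 CPM with AAV206-GFP. Tfap2a and Ednrb averaged 32.2 and 10.1 CPM of it, and Erbb3 0.534 CPM. Sox10, a defining factor of melanocytes that is also expressed in oligodendrocytes, was at 0 in 2 libraries and at 0.732 ± 0.819 and 0.668 ± 0.650 CPM (SD, n = 5). All 6 fibroblast genes of choroid and sclera were detected, and summed to 15.3 to 34.2 CPM with AAV2-GFP and 14.1 to 24.4 CPM with AAV206-GFP. All 8 genes of ciliary and choroid plexus epithelium, which also makes Ttr, were detected, with sums of 236 to 264 CPM and 242 to 270 CPM, of which the water channel gene Aqp1 made up 161 CPM on average. The lens genes, of which 6 of 7 were detected and Lim2 was at 0 in every library, summed to 13.4 to 30.1 CPM with AAV2-GFP and 1.61 to 16.1 CPM with AAV206-GFP. Of 4 tested lens genes 2 fell, the crystallins Cryaa and Crybb2, beside 5.30% of all tested genes that passed with AAV206-GFP lower. Their values were -2.50 and -2.67 on the log2 scale (edgeR adjusted p = 0.0288 and 0.0183). These calls depended on single mice: 0 lens genes passed without AAV2-GFP replicate 5 or without AAV206-GFP replicate 3. Only 1 passed with DESeq2 or without AAV206-GFP replicate 2, 4 or 5. Red blood cell genes went the other way: 4 of 5 rose (Hba-a1, Hba-a2, Hbb-bs and Alas2), beside 5.95% of all tested genes that passed higher. The 5 summed to 67.5 to 85.6 CPM with AAV2-GFP and 100.3 to 318 CPM with AAV206-GFP, without overlap. Among all tested genes 5.42% showed no overlap with AAV206-GFP higher. The globin genes carried decimals in all 10 libraries and have near-identical copies, so their counts are uncertain. The part of these tissues in the levels of Ttr and of the pigment genes was not tested.

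Outside the lists, genes whose pattern over the 10 mice was most like the mean log2(CPM + 1) of the 6 pigment genes were taken from the highest Pearson's r among 14955 genes that averaged 1 CPM or more. Eln, which encodes elastin, came first with r = 0.89, followed by Nelfb with 0.88, Ptgds, a prostaglandin D synthase, with 0.87 and Irak1 with 0.84. Khk, Gm2000, 4930442P19Rik, 1110012L19Rik and Grhl1 had r between 0.81 and 0.84. These values describe 10 libraries that share their depth and scaling, were picked as the highest of 14955 and carry no test. None of these named genes passed in the comparison of the vectors, with log2 fold changes of 0.01 to 0.28 (edgeR adjusted p = 0.415 to 0.977).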

How the data were processed

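RNA was measured in 10 mouse retinas, 5 per vector, assigned by label. Trizol RNA, an NEBNext Ultra library kit and NovaSeq read pairs of 150 bases were used, per the labels' protocols. STAR 2.7.10b, RSEM 1.3.1 and build mm10 are named, without their roles, per the submitters' processing notes. The deposited values are estimated counts per gene, whose totals differ between libraries; 5.95% carry decimals, but those of all 10 members are whole. Counts were rounded, named through GENCODE M21, and filtered with filterByExpr (minimum count 10), which left 15539 genes. edgeR 4.0.16 in R 4.3.3 fitted the quasi-likelihood F test with TMM scaling, no covariates and Benjamini-Hochberg adjustment over all tested genes. CPM are relative to TMM-scaled library totals (10989843 to 12752604 counts before scaling). Standard errors were taken from the fold change and its F statistic. Permutation tests used 100000 resamples (two-sided) and log2(CPM + 1). Spread beyond counting is the within-group Pearson chi-square per degree of freedom. DESeq2 1.42.0, limma-voom (limma 3.58.1), other scalings and filters, a replicate block and left-out libraries were alternatives. The code was tested on simulated data. Members and lists were chosen with earlier results of these data known. Beyond members, up to 4 listed genes with the smallest p and the defining markers were named. P-values of the vector comparison rest on the spread between mice, and permutation p-values on re-pairing the libraries. Some items are not reported here.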

Additional observations from a re-analysis of the deposited data

Results flagged for a closer look

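In 64 groups of 5 mice, 1 mouse lay far from the others of its group (Dixon's ratio above 0.71) in 3, where chance gives about 1 in 20. None of the 3 concerned a member of the gene set. Hps3 was at 80.9 CPM in AAV2-GFP replicate 1, with the remaining AAV2-GFP mice at 67.3 to 70.2 CPM. Tfeb was at 14.1 CPM in AAV2-GFP replicate 2, against 10.8 to 11.7 CPM. Col3a1, a fibrillar collagen of choroid and sclera, was at 5.31 CPM in AAV2-GFP replicate 1, against 1.08 to 2.13 CPM.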

How the results depend on the processing

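Each result was recomputed under up to 19 alternatives. With Lrat in place of Rpe65, 0 relations passed, but Tyrp1 (-0.39) and Dct (-0.13) turned negative. Same-numbered libraries of the groups did not deviate together (r of deviations -0.052 to 0.040). Libraries with different numbers were not compared, so these values cannot decide whether the numbers pair the mice. With the replicate block 1085 genes passed in all, 0 of the other RPE genes passed, and no member did. Without AAV2-GFP replicates 1 and 4, 985 genes and 2 other RPE genes passed. The other RPE genes that passed numbered 2 with DESeq2 and 0 with limma-voom. Leaving out 1 library at a time gave 991 to 1912 genes, 0 to 1 member (Ttr, without AAV2-GFP replicate 2), 0 to 3 other RPE genes (3 without AAV2-GFP replicate 1, 2 without AAV206-GFP replicate 5, 0 without AAV2-GFP replicate 3 or 4 or AAV206-GFP replicate 1, 2 or 3), 1 to 3 other pigment genes (3 without AAV2-GFP replicate 1) and 0 to 1 relation with Rpe65 (Ttr, without AAV206-GFP replicate 2, r = 0.85, permutation p = 0.00397, adjusted 0.0397). The count over all genes fell past 1.5-fold without AAV2-GFP replicate 4 (991), AAV206-GFP replicate 2 (1074) or AAV206-GFP replicate 4 (1056). Pmel changed sign without AAV2-GFP replicate 5 (0.23) and without AAV206-GFP replicate 4 (0.057), over a range of -0.30 to 0.23. Col1a1 (log2 fold change 0.03, not called) ranged from -0.12 to 0.19 and was -0.12, -0.0016, -0.090 and -0.063 without AAV2-GFP replicates 3 and 4 and AAV206-GFP replicates 1 and 5. The cause of these changes was not tested. Mitf, Stra6, Tyrp1 and Dct kept direction and side of the threshold under all 19 alternatives, with log2 fold changes of -0.50 to -0.31, -0.59 to -0.37, 0.56 to 0.89 and 0.07 to 0.40. The relations with Rpe65 were not run with a replicate block, since 5 numbers are fewer than the 6 a correlation needs. Depth limits Best1, Tyr, Mlana and Slc45a2, with at most 10 counts in a library.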

Other observations

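Single genes listed for tissues around the retina passed between the vectors, beside 11.2% of all tested genes. Slc4a5, a bicarbonate cotransporter of ciliary and choroid plexus epithelium, rose from 27.04 ± 2.702 CPM with AAV2-GFP to 35.8 ± 4.40 CPM with AAV206-GFP (SD, n = 5; log2 fold change 0.40, standard error 0.10, edgeR adjusted p = 0.0155), and was the 1 gene of 8 tested in its list to pass. Col3a1 fell from 2.33 ± 1.72 to 0.775 ± 0.387 CPM (log2 fold change -1.56, standard error 0.46, edgeR adjusted p = 0.0384), as 1 of 4 tested fibroblast genes; without AAV2-GFP replicate 1, its highest mouse, the log2 fold change was -1.02 and the edgeR adjusted p 0.0956, and it also did not pass without AAV2-GFP replicate 3 or 5 or AAV206-GFP replicate 2, 3, 4 or 5 (0.0533 to 0.0948). Slc4a5 did not pass without AAV2-GFP replicates 1 and 4 together (0.0727). Col1a1, the most typical gene of that list, stood at 3.30 ± 1.07 and 3.36 ± 1.03 CPM. Mc1r, the melanocortin receptor of melanocytes, stood at 2.42 ± 0.410 and 3.21 ± 0.762 CPM and did not pass (log2 fold change 0.41, standard error 0.23, edgeR adjusted p = 0.268). Of the 4 tested melanocyte and neural crest genes 0 passed with edgeR, DESeq2 or limma-voom, and 0 had an unadjusted p under 0.05 with any of them.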
